A study of Mus musculus with 8 samples.

Results

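The 10 genes Slc2a1, Hk2, Hk3, Pfkp, Aldoa, Gapdh, Pgk1, Eno1, Pkm and Ldha, which encode a glucose carrier and enzymes of glycolysis, were taken by symbol from a table of 24421 gene symbols. All 10 passed the filter on low counts, which kept 13722 genes for testing. RNA was sequenced from mouse C57BL/6 bone marrow cells that carry MLL-AF10, a leukaemia fusion gene, and that were kept in methylcellulose, with GM-CSF, IL-3 and SCF as cytokines. Cells of a line called MAflox, described as MLL-AF10 flox cells, were compared with cells of a line called MATIP, which carry MLL-AF10, Tip60 flox/flox and Cre-ERT2. Kat5 is the gene of Tip60, a histone acetyltransferase. The recombinase Cre-ERT2 becomes active when 4-hydroxytamoxifen (4-OHT) binds it. Cells of both lines received 4-OHT at 100 nM or the solvent ethanol (EtOH) over 4 days, and each of the 4 groups had 2 libraries. The labels do not say whether MAflox cells carry Cre-ERT2, which allele is floxed in them, whether a line is 1 clone, or whether a group's libraries stem from different cultures. The p-values therefore measure only the spread between these libraries, which may be technical.

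Glycolysis splits glucose into pyruvate in the cytosol and yields ATP and NADH without oxygen. Glucose enters through carriers such as GLUT1 (Slc2a1), is trapped by a hexokinase, is committed by phosphofructokinase and is cleaved by aldolase. The later enzymes GAPDH, phosphoglycerate kinase, enolase and pyruvate kinase turn the triose phosphates into pyruvate, and lactate dehydrogenase A reduces pyruvate to lactate while it regenerates NAD+. Many of these genes are textbook targets of the hypoxia-inducible factors (HIF) and of MYC, and neutrophils are known to draw most of their ATP from glycolysis.

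The libraries held 41101309 to 57312490 gene counts. Kat5, the gene floxed in MATIP cells, was at 41.1 and 41.2 CPM (counts scaled to library size with TMM factors) in MATIP EtOH and at 8.11 and 8.32 in MATIP 4-OHT, a log2 change of -2.32 ± 0.09 (SE of the fit). The MAflox 4-OHT libraries had 57.5 and 62.5 CPM of Kat5 and the MAflox EtOH libraries 43.7 and 41.2. Markers of myeloid maturation moved with 4-OHT beside everything that follows. By the test described below, 33.1% of all tested genes rose and 32.1% fell in MAflox cells. In MATIP cells 37.5% of them rose and 38.6% fell. All 14 of 14 mature neutrophil markers rose in both lines, and their summed level went from 363 to 365 CPM with EtOH up to 51818 to 55451 with 4-OHT in MAflox cells, and from 804 to 953 up to 35769 to 39343 in MATIP cells. Of 12 tested monocyte and macrophage markers, 9 rose and 1 fell in MAflox and 11 rose in MATIP. Their sums were 1455 to 1474, 7416 to 7539, 1576 to 1752 and 24447 to 25538 CPM in the same order of groups, with C1qa at 0 in every library. Of 10 progenitor markers, 2 rose and 7 fell in MAflox and 1 rose and 9 fell in MATIP, with median log2 changes of -0.89 and -1.47. Their sums, with Mpo highest, were at 11115 to 11374, 10528 to 10603, 16610 to 16931 and 5118 to 5460 CPM. Erythroid markers summed to 1.22 to 2.37 CPM, with Hba-a1, Hbb-bs, Hbb-bt and Slc4a1 at 0, and lymphoid markers to 6.50 to 12.3 CPM, with Cd3e, Cd8a and Pax5 at 0. Of 8 tested stromal and endothelial markers, 4 rose and 2 fell in MAflox and 7 rose and 1 fell in MATIP (median log2 2.76 and 3.76). The sum of that list, led by Pecam1, was 75.6 to 93.3 CPM. The part of these cell states in the glycolysis results was not tested, and in bulk RNA fewer cells of a type and less RNA per cell cannot be told apart.

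The 4 genes with the largest differences between the lines' responses to 4-OHT were Pgk1, Ldha, Aldoa and Slc2a1, and Pkm was the member with the smallest difference. The 250 bases before an annotated start of each are shown because HIF is known to bind the core ACGTG, a word that can be looked for there. For Ldha, Aldoa and Pkm, which have several starts, a start with the word is shown. Its presence in all printed sequences is thus set by that choice and is not a result. Capitals mark ACGTG on either strand (CACGT on the printed strand), and each sequence runs 5′ to 3′ along the gene. All come from RefSeq on GRCm38.p6. They lie at chrX:106186850-106187099 (+ strand, Pgk1), chr7:46845554-46845803 (+ strand, the first of the Ldha starts), chr7:126799255-126799504 (- strand, the second of the Aldoa starts), chr4:119108495-119108744 (+ strand, Slc2a1) and chr9:59656977-59657226 (+ strand, the second of the Pkm starts).
Pgk1: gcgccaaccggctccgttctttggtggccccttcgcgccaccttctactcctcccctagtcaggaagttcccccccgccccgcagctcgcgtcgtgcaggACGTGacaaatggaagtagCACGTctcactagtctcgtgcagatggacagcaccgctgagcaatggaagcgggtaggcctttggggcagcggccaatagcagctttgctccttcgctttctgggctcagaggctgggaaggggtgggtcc
Ldha: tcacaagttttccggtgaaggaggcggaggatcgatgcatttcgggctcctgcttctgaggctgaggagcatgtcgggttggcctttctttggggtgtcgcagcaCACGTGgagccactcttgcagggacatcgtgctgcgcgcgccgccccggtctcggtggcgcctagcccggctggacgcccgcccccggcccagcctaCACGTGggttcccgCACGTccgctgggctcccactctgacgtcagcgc
Aldoa: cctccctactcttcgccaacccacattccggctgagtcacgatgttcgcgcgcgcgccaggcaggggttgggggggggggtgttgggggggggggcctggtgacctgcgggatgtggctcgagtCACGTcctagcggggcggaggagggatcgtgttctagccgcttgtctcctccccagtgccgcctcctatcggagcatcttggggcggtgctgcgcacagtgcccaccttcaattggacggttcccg
Slc2a1: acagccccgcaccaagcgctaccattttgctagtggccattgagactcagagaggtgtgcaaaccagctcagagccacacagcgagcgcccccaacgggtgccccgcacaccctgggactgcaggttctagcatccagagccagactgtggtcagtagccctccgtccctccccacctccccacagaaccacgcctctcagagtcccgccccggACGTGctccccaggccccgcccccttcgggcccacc
Pkm: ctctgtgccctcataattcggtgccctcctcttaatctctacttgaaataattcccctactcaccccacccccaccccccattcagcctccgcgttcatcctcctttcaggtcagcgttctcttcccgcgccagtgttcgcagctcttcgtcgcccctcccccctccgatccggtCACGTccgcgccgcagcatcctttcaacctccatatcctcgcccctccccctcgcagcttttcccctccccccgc
Counted from the start, with negative positions before it, the word began at -150 and -131 in Pgk1, at -126 in Aldoa, at -36 in Slc2a1 and at -75 in Pkm. The windows at the first starts of Aldoa and Pkm and at the second start of Ldha held no ACGTG. At its first start Ldha held 5 matches, at -145, -144, -48, -47 and -34. The pairs at -145 and -144 and at -48 and -47 overlap, because CACGTG, which is its own reverse complement and the textbook binding word of MYC with MAX, holds ACGTG on both strands. The whole windows span 300 bases (250 before and 50 after a start). ACGTG stood in 9 of the 16 windows of the members and in 19.6% of 32851 windows of 27025 genes. These windows are not independent. The Aldoa windows with ACGTG overlap, and their matches at -126 and -202 are the same site, counted in each. Some Eno1 windows overlap as well, and overlaps among the windows of all genes were not counted. At least 1 window held ACGTG in 8 of the 10 members, all but Pfkp and Eno1. For this count of genes no share over all genes was computed, and genes differ in their number of windows. Among windows of 60% GC or more, 7 of 11 windows of members and 26.5% of 9690 windows in all held ACGTG. The 7 include the overlapping Aldoa windows. CACGTG stood in 1 window of the members, that of Ldha, and in 7.15% of all windows. GCGTG, the other common HIF core, stood in 8 of the 16 windows of the members, which belong to 5 genes, and in 32.4% of all windows. Those 5 were Slc2a1, Pfkp, Gapdh, Eno1 and Ldha. The overlapping Eno1 windows share GCGTG sites.

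The genes differ in how well short reads can be assigned to them, since several have processed pseudogenes. Of the 50-base words in the longest protein-coding transcript of GENCODE M21 (assembly mm10), Hk2 and Hk3 shared 0% with another gene and Slc2a1 1.74%. Aldoa shared 13.5%, Ldha 16.6%, Pfkp 17.1% and Pkm 34.4%. Pgk1 shared 68.0% with 5 pseudogenes, Eno1 shared 72.2% with 9 genes, most of it with Eno1b, and Gapdh shared 82.5% with 222 genes, of which 213 are pseudogenes. How reads that fit several places were counted is not given in the sources used here, so the levels of Gapdh, Eno1 and Pgk1 are uncertain, and Pgk1 counts rest on a minority of its sequence if such reads were dropped. The shared words of Pfkp belong to Pitrm1 on the opposite strand, and Pkm shares 767 exon bases with Gm49759 on its own strand. Counts per gene do not separate the M1 and M2 forms of pyruvate kinase, which are splice forms of Pkm.

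On mm10 the carrier gene Slc2a1 lies on chromosome 4 at 119108711 to 119137983, and Eno1 on the same chromosome at 150236721 to 150248879. Hk2 lies on chromosome 6 at 82725025 to 82774454, as does Gapdh at 125161715 to 125166467. Hk3 lies on chromosome 13 at 55005985 to 55021385, and Pfkp there at 6579768 to 6648777. Chromosome 7 holds Aldoa at 126795234 to 126800751 and Ldha at 46841475 to 46855627. Pgk1 lies on chromosome X at 106187100 to 106203699 and Pkm on chromosome 9 at 59656368 to 59679375. Each has a protein-coding annotation.

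Scaled per exon length within each library, as TPM (length-scaled counts brought to a common total), the mean levels of the members ran from 2638 to 1.85 in MAflox EtOH. Aldoa was highest there at 2638 TPM, followed by Ldha at 2179, Pkm at 1972 and Pgk1 at 1541. Hk3 came next at 472 TPM, then Slc2a1 at 165, Gapdh at 129, Hk2 at 88.3 and Pfkp at 68.9, and Eno1 was last at 1.85. Of neighbours in that order, only the libraries of Ldha and Pkm overlapped. With exon unions, Aldoa had the highest mean in all 4 groups and Eno1 the lowest. In MATIP EtOH the libraries of Ldha and Pkm, of Gapdh and Slc2a1 and of Slc2a1 and Hk2 overlapped. Pgk1 stood in the second place in MAflox 4-OHT, at 2825 TPM, where Pfkp and Hk2 overlapped. In MATIP 4-OHT Pkm, at 1725 TPM, overlapped Aldoa, at 1743, and Ldha came next at 858. With the length of the longest transcript in place of the exon union the order changed in all 4 groups. Pkm then came first in MATIP 4-OHT (2749 TPM against 2537 for Aldoa), and Pgk1, at 2638 TPM, stood below Ldha (3033) and Pkm (2999.6) in MAflox 4-OHT. TPM values order genes within a group and are not compared between groups here, because they are not corrected for the abundant granule transcripts of the treated cells. Gapdh and Eno1, low in this order, are also the members with the largest shares of sequence found in other genes.

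In MAflox cells, 5 members rose with 4-OHT, which were Slc2a1, Aldoa, Pgk1, Pkm and Ldha, and 1 fell, which was Hk2. A gene is said to rise or fall where the quasi-likelihood test of edgeR gave a p under 0.05 after Benjamini-Hochberg adjustment over all 13722 tested genes. By that rule 65.2% of all tested genes were called in this contrast, 33.1% higher and 32.1% lower, so the count of members stands near the background. The median log2 change was 0.32 over the 10 members and 0.02 over all tested genes.

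Pgk1, phosphoglycerate kinase, which makes the first ATP of the pathway, was at 892 and 1036 CPM in MAflox EtOH and at 2599 and 2659 CPM in MAflox 4-OHT. Both treated libraries lay far above both controls, and the rise was 2.73-fold (log2 1.45 ± 0.09, adjusted p = 9.25e-11, edgeR). Aldoa, the main aldolase of blood cells, went from 2040 and 2242 CPM to 4172 and 4143 CPM, with no overlap. Its rise was 1.94-fold (log2 0.96 ± 0.08). Slc2a1 stood at 149 and 174 CPM in EtOH and at 261 and 264 CPM in 4-OHT, again without overlap (1.62-fold, log2 0.70 ± 0.10). Ldha went from 1915 and 2108 CPM to 2906 and 3107 CPM, and Pkm from 2613 and 2886 CPM to 3959 and 4007 CPM. In both genes the treated libraries were above the controls, by log2 0.58 ± 0.08 for Ldha and 0.53 ± 0.07 for Pkm.

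Hk2, a hexokinase that can dock on mitochondria, was the member that fell. It went from 142 and 152 CPM to 123 and 114 CPM (log2 -0.31 ± 0.07). Hk3, the hexokinase typical of myeloid cells, had 494 and 476 CPM in EtOH and 499 and 496 CPM in 4-OHT, a log2 difference of 0.04 ± 0.05 that did not pass (adjusted p = 0.569, edgeR). Pfkp, the platelet form of phosphofructokinase, differed by 0.09 ± 0.08, Gapdh by 0.08 ± 0.06 and Eno1 by 0.10 ± 0.24, with overlapping libraries in all 3. When a trend of the counts on transcript length and GC content was taken out, which lowered the median of all genes from 0.02 to -0.11, the call of Hk2 was lost (log2 -0.06) and Pfkp, whose longest transcript has 8681 bases, was called higher (log2 0.56). The same step brought Ldha to 0.19 (adjusted p = 0.0311, edgeR) and Aldoa to 0.58, while Pgk1 stayed at 1.05 and Slc2a1 at 0.61.

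In MATIP cells most members fell. Of the 10, 7 were called lower with 4-OHT, namely Slc2a1, Hk2, Hk3, Pfkp, Gapdh, Pgk1 and Ldha, and 1 rose, which was Pkm. In this contrast 76.1% of all tested genes were called, 38.6% of them lower and 37.5% higher as shares of those tested. The median log2 change was -0.39 over the members and 0.00 over all tested genes.

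Ldha had 1537 and 1908 CPM in MATIP EtOH and 997 and 1085 CPM in MATIP 4-OHT, so both treated libraries lay below both controls (log2 -0.73 ± 0.08, adjusted p = 1.03e-07, edgeR). Pfkp went from 241 and 304 CPM to 162 and 158 CPM, the largest fall of a member (log2 -0.77 ± 0.08). Both hexokinase members were lower without overlap. Hk2 went from 146 and 168 CPM to 100 and 95.9 CPM (log2 -0.68 ± 0.07), and Hk3 from 419 and 432 CPM to 278 and 299 CPM (log2 -0.56 ± 0.06). Gapdh, which makes the NADH of the pathway, stood at 134 and 144 CPM in EtOH and at 104 and 98.7 CPM in 4-OHT (log2 -0.45 ± 0.06).

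Slc2a1 and Pgk1 fell by less, and their calls depended on single libraries and on the method. Slc2a1 was at 93.8 and 132 CPM in MATIP EtOH and at 90.9 and 94.4 CPM in MATIP 4-OHT, so the groups overlapped (log2 -0.29 ± 0.11, adjusted p = 0.0184, edgeR). Without MATIP EtOH replicate 2 the value was -0.03 (adjusted p = 0.764, edgeR), and the call was lost in 8 of 15 alternatives, where adjusted p ran from 0.0577 to 0.764. The losses include leaving out either MATIP 4-OHT library or either MAflox 4-OHT library, RLE scaling, DESeq2 and a fit to the MATIP libraries alone. Pgk1 had 641 and 856 CPM in EtOH and 592 and 614 CPM in 4-OHT, without overlap (log2 -0.31 ± 0.09). DESeq2 did not call it (adjusted p = 0.191), nor did edgeR once MATIP EtOH replicate 2 (log2 -0.10, adjusted p = 0.237) or MATIP 4-OHT replicate 1 (adjusted p = 0.0753) was left out. In the authors' deposited table neither passed in MATIP cells (adjusted p = 0.379 for Slc2a1 and 0.241 for Pgk1), while Ldha did (log2 -0.68, adjusted p = 3.69e-05).

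Pkm was the exception among the members. It went from 2078 and 2481 CPM in MATIP EtOH to 3061 and 3260 CPM in MATIP 4-OHT, above both controls (log2 0.47 ± 0.07, adjusted p = 6.64e-06, edgeR). Aldoa, at 1786 and 2214 CPM in EtOH and 1834 and 1880 CPM in 4-OHT, overlapped and was not called (log2 -0.11 ± 0.07). Its value was -0.26 and called without MATIP EtOH replicate 1, and 0.04 without MATIP EtOH replicate 2. Eno1, at 2.20 and 2.18 CPM in EtOH and 1.85 and 1.66 CPM in 4-OHT, had a log2 difference of -0.32 ± 0.25 that did not pass.

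**Figure D1:**
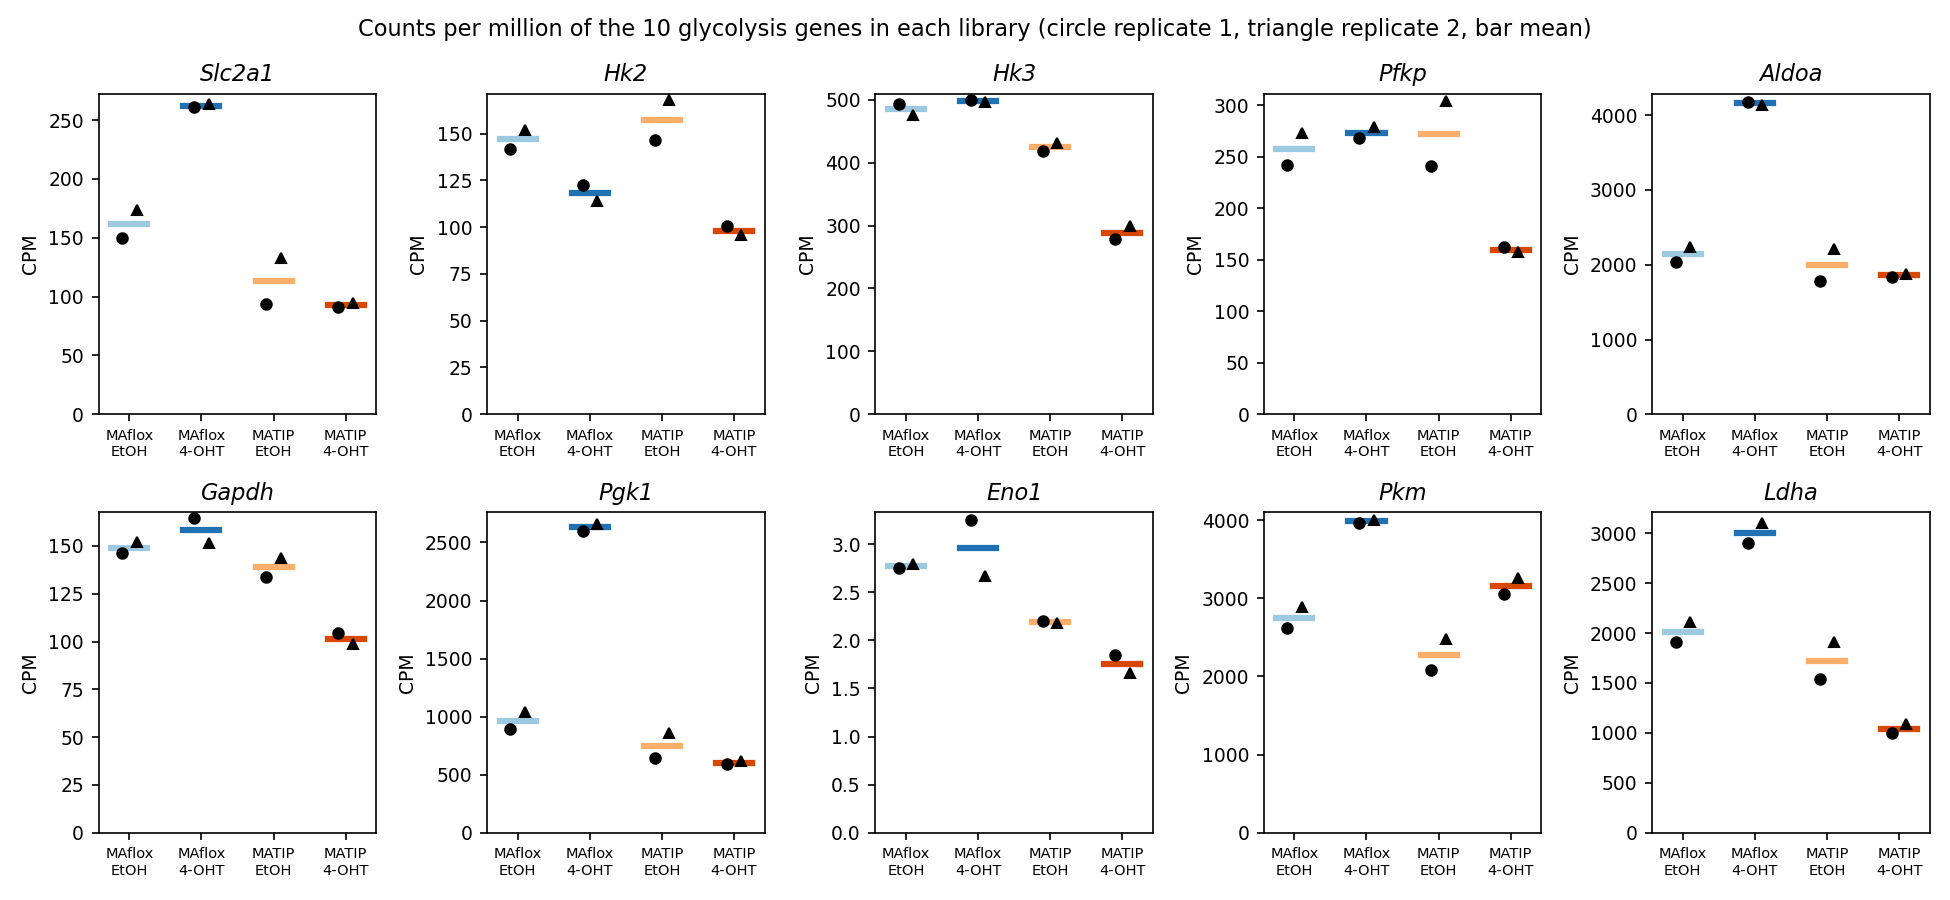
Level of each of the 10 genes, in CPM (scaled counts) on axes that start at 0, in the 8 libraries. Circles are replicate 1, triangles replicate 2 and coloured bars the group mean. The MAflox 4-OHT libraries stand above all others for Slc2a1, Aldoa, Pgk1, Pkm and Ldha. The MATIP 4-OHT libraries are lowest for Hk2, Hk3, Pfkp, Gapdh, Pgk1, Eno1 and Ldha.

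**Figure D2:**
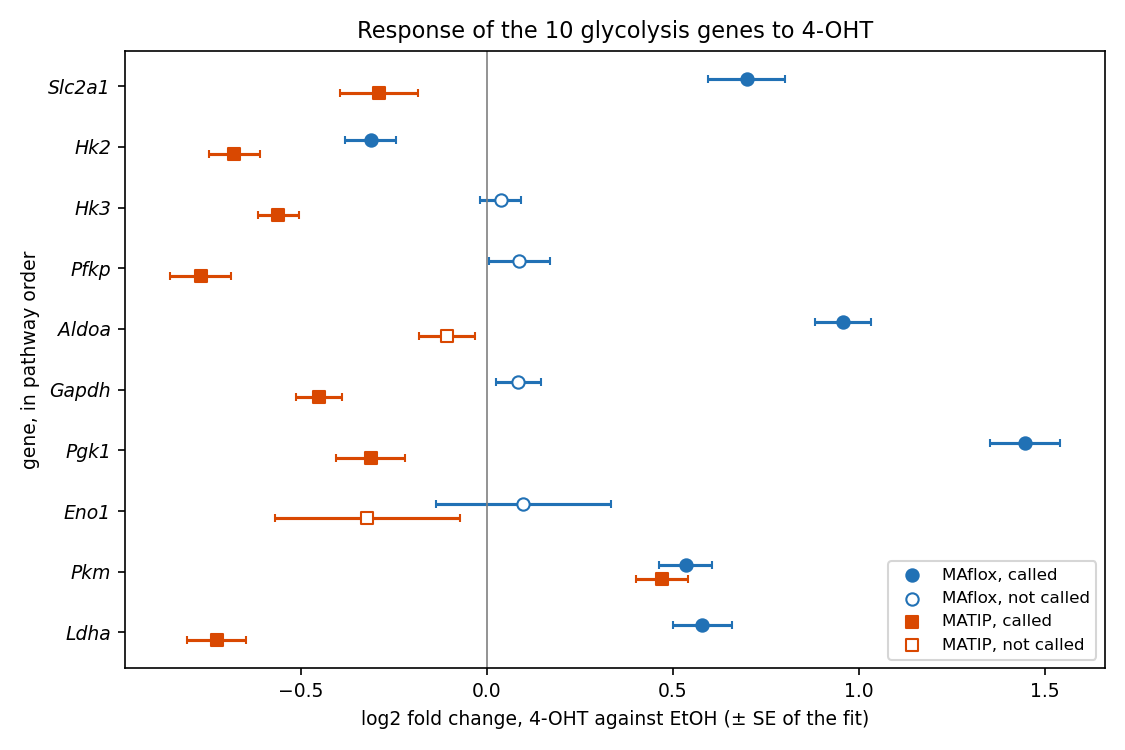
Log2 fold change of 4-OHT against EtOH for each gene in MAflox (circles) and MATIP (squares), with bars for the standard error of the fit to 8 libraries. Filled symbols passed an adjusted p of 0.05. The symbols of the lines stand apart for all genes but Eno1, whose bars meet, and Pkm.

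The difference between the responses was tested as an interaction (MATIP response minus MAflox response). It was lower for 8 of the 10 members and higher for 0, where 61.9% of all tested genes were called, 33.6% lower and 28.3% higher. The median difference was -0.73 over the members and -0.03 over all tested genes. Pgk1 differed most (log2 -1.76 ± 0.13, adjusted p = 1.26e-09, edgeR), then Ldha (-1.31 ± 0.11), Aldoa (-1.06 ± 0.11) and Slc2a1 (-0.99 ± 0.15). These 4 had risen in MAflox cells. The genes of the early steps Pfkp (-0.86 ± 0.12), Hk3 (-0.60 ± 0.08) and Hk2 (-0.37 ± 0.10) and the triose step Gapdh (-0.54 ± 0.09) differed by less.

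All 8 of these calls were kept in each of the 15 alternatives. The value of Pgk1 ran from -1.96 to -1.43 over them, that of Ldha from -1.46 to -0.999, that of Aldoa from -1.22 to -0.81 and that of Slc2a1 from -1.22 to -0.73. Removal of the length and GC trend moved Hk2 to -0.78 and Pfkp to -1.56, away from 0. For Pkm the difference was -0.06 ± 0.10 (adjusted p = 0.604, edgeR), and it lay between -0.19 and 0.06 over the alternatives. Its sign changed with the scaling, to 0.01 with RLE factors. For Eno1, at -0.42 ± 0.34, the spread was too wide for a call.

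After 4-OHT the lines stood apart for every member. All 10 were lower in MATIP 4-OHT than in MAflox 4-OHT, where 75.5% of all tested genes differed, 37.5% lower and 38.1% higher as shares of those tested. Pgk1 was 4.36-fold lower, Ldha 2.89-fold, Slc2a1 2.83-fold and Aldoa 2.24-fold, and no library of one line reached the other. Hk3, Pfkp, Gapdh and Eno1 were lower by 1.73-, 1.71-, 1.56- and 1.69-fold. Pkm (1.26-fold) and Hk2 (1.21-fold) were the nearest. The call of Eno1 was lost without MAflox 4-OHT replicate 1 (adjusted p = 0.0755, edgeR) or without MATIP 4-OHT replicate 2 (adjusted p = 0.0613, edgeR).

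The lines already differed in part under EtOH. There 5 members were lower in MATIP and 0 higher, which were Slc2a1 (log2 -0.51 ± 0.10), Pgk1 (-0.36 ± 0.09), Pkm (-0.27 ± 0.07), Ldha (-0.22 ± 0.08) and Hk3 (-0.19 ± 0.05). In this contrast 32.0% of all tested genes were called, 20.3% higher and 11.7% lower, a split of 2780 against 1608 genes that became 2226 against 2256 with the length and GC trend removed. Slc2a1 kept its call in all 14 alternatives, while the other 4 each lost it without MATIP EtOH replicate 1 (adjusted p = 0.0709 to 0.473, edgeR). Pgk1, Pkm and Ldha also lost it without MAflox EtOH replicate 2 (adjusted p = 0.0882 to 0.282), and Hk3 without MAflox EtOH replicate 1 (adjusted p = 0.13). Without MATIP EtOH replicate 1 only Slc2a1 was called lower, and Pfkp was called higher (log2 0.24).

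These single-library effects go with a shift between the EtOH replicates. In MATIP EtOH, 9 of 10 members were higher in replicate 2 than in replicate 1, by a median log2 of 0.28 and by 0.50 for Slc2a1. In MAflox EtOH it was also 9 of 10, by a median of 0.14. Over all tested genes 50.2% and 51.6% were higher in replicate 2 in these groups, and the median size of the gap in either direction was 0.11 and 0.10. HIF pathway genes shifted alike, 21 of 24 in MATIP EtOH by a median of 0.28 and 22 of 24 in MAflox EtOH by 0.22. In the 4-OHT groups 5 (MAflox) and 6 (MATIP) of 10 members were higher in replicate 2. This pattern was found after the values were seen, and its part in the falls of Slc2a1 and Pgk1 was not tested. The values without each library show only how far those falls rest on single libraries.

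Genes of the same family were set beside the members as shares of their summed length-scaled counts. Among 5 tested glucose transporter genes, Slc2a1 held 83.1% ± 0.62 (SD, n = 2) with EtOH and 61.4% ± 1.09 with 4-OHT in MAflox cells, against 76.1% ± 0.39 and then 28.6% ± 0.67 in MATIP cells. Its share was lower after 4-OHT in both lines. Slc2a3, the GLUT3 gene of neutrophils and neurons, went from 3.98% to 30.0% in MAflox and from 6.52% to 31.5% in MATIP. Slc2a6, which encodes a lysosomal hexose transporter, was at 6.99% and 4.64% in MAflox and at 8.99% and 33.4% in MATIP. With Slc2a6 among the 5, these shares describe transcripts of a family and do not measure glucose uptake. Slc2a1 itself went from 162 to 262 mean CPM in MAflox and from 113 to 92.6 in MATIP.

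In CPM, Slc2a3 had 14.1 and 18.0 in MAflox EtOH and 254 and 276 in MAflox 4-OHT, against 15.3 and 25.3 and then 213 and 208 in MATIP. It rose in both lines (log2 4.04 ± 0.15 and 3.36 ± 0.14). In MAflox cells Slc2a6 went from 11.8 and 13.01 CPM to 17.1 and 19.3, and in MATIP cells from 10.6 and 13.7 to 98.7 and 99.2. Its rise was larger in MATIP (difference of responses 2.47 ± 0.15). Both treated libraries were far above the controls for Slc2a3 in either line and for Slc2a6 in MATIP.

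Hk3 made up 75.2% of hexokinase counts per length with EtOH and 76.6% with 4-OHT in MAflox cells, and 67.1% and 67.0% in MATIP cells. Hk2 held 11.2% to 15.3% and Hk1, the widespread housekeeping form, 10.7% to 18.9% of group means. Pfkp held 29.0% of phosphofructokinase counts per length in MAflox EtOH and 36.1% in MAflox 4-OHT, and 34.3% and 30.3% in MATIP, while Pfkl, the liver form, held 49.6% to 55.5%. Aldoa held 97.6% to 99.5% against Aldoc. Pkm against Pklr and Ldha against Ldhb held from 99.9% (Ldha in MATIP 4-OHT) upward in each group mean. With longest transcripts in place of exon unions, Hk1 held 17.4% to 29.1% and Hk3 59.1% to 70.7%.

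Export of lactate runs through the monocarboxylate carriers MCT1 (Slc16a1) and MCT4 (Slc16a3), which need the chaperone basigin (Bsg). Slc16a1 fell in both lines, from 215 and 205 to 123 and 125 CPM in MAflox and from 211 and 206 to 46.0 and 48.9 CPM in MATIP (log2 -0.76 ± 0.06 and -2.14 ± 0.06). Slc16a3 rose in MAflox, from 147 and 183 to 410 and 421 CPM (log2 1.33 ± 0.14), and fell in MATIP, from 178 and 287 to 138 and 148 CPM (log2 -0.70 ± 0.14). Bsg went the same ways as Slc16a3 (log2 1.06 ± 0.07 and -0.34 ± 0.07). Of the 2 carriers, Slc16a3 held 39.5% and then 73.6% in MAflox and 47.4% and then 71.5% in MATIP.

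**Figure D3:**
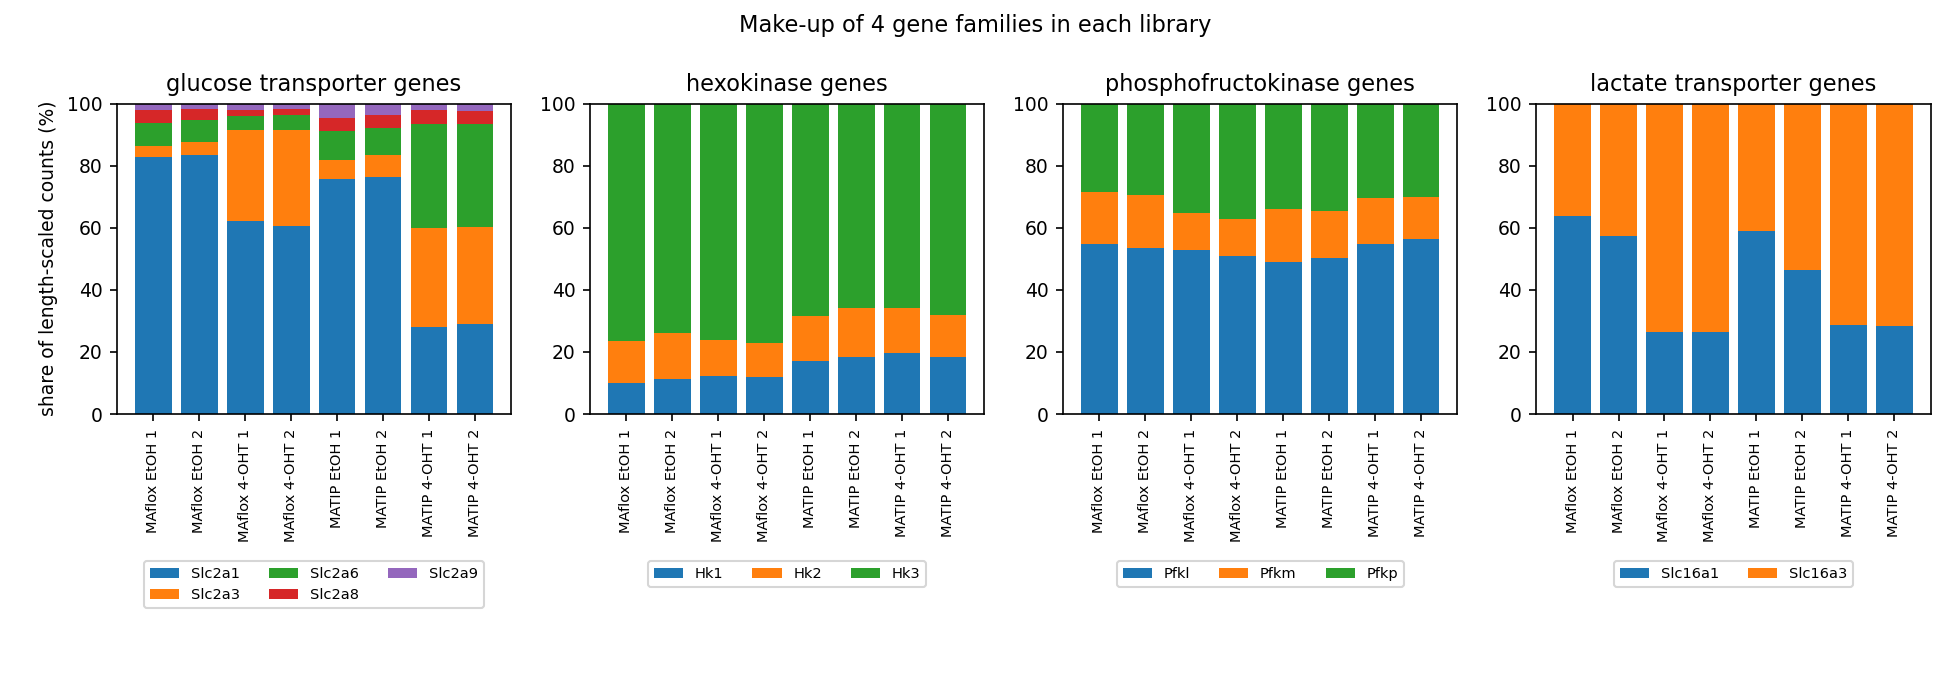
Share of each gene in the length-scaled counts of its family (percent, stacked to 100) in each of the 8 libraries, for the tested glucose transporter, hexokinase, phosphofructokinase and lactate transporter genes. Slc2a1 drops from 76.1% of transporter counts to 28.6% in MATIP with 4-OHT. There Slc2a3 goes from 6.52% to 31.5% and Slc2a6, a lysosomal transporter gene, from 8.99% to 33.4%. Hk3 leads the hexokinases in every library.

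Counts in the lists below stand beside 65.2% of all tested genes called in MAflox, 76.1% in MATIP and 61.9% in the difference. The remaining steps and isozymes of the pathway were followed in a list of 21 genes, 19 of them tested. In MAflox cells 11 rose and 2 fell, and in MATIP cells 8 rose and 6 fell. The median log2 change was 1.09 and 0.23, which is set partly by genes under 1 CPM such as Hkdc1, Eno2, Pklr, Ldhb and Ldhc. The responses differed for 7 of the 19, 1 higher (Adpgk) and 6 lower (Hk1, Gpi1, Aldoc, Tpi1, Pgam1 and Eno1b). With the length and GC trend removed, 7 rather than 11 rose in MAflox cells, and the values of Tpi1, Pgam1 and Eno1b there changed sign.

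Tpi1, triosephosphate isomerase, went from 1004 and 1119 CPM to 1389 and 1415 in MAflox cells and from 807 and 1022 to 243 and 255 in MATIP cells. The MATIP 4-OHT libraries were far below the rest, and the difference of responses was -2.28 ± 0.12. Gpi1, glucose-6-phosphate isomerase, rose in MAflox cells from 1447 and 1525 to 2795 and 2705 CPM and lay between 1324 and 1522 CPM in all MATIP libraries (difference -0.97 ± 0.09). Aldoc went from 13.9 and 17.2 to 119 and 112 CPM in MAflox cells and stayed between 9.39 and 15.3 CPM in MATIP cells (difference -2.99 ± 0.21). Pgam1, a phosphoglycerate mutase, and Eno1b differed by -0.75 ± 0.08 and -0.94 ± 0.13, and Hk1 by -0.66 ± 0.10. Adpgk, an ADP-dependent glucokinase, rose in both lines, by 1.90 ± 0.06 and 2.45 ± 0.06.

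The enzymes that set fructose 2,6-bisphosphate, the activator of phosphofructokinase, were a list of 5. Of these, 1 rose and 1 fell in MAflox cells, 2 rose and 2 fell in MATIP cells, and the response differed for Pfkfb2 (0.48 ± 0.20), Pfkfb4 (-1.05 ± 0.14) and Tigar (-0.91 ± 0.09). The call of Pfkfb2 was lost in 6 of 15 alternatives, with 0.27 (adjusted p = 0.208, edgeR) without MATIP EtOH replicate 1 and 0.36 (adjusted p = 0.183, edgeR) without MAflox 4-OHT replicate 2. Pfkfb4 rose in both lines, from 7.38 and 8.20 to 54.8 and 52.2 CPM in MAflox and from 12.2 and 14.9 to 44.3 and 45.5 CPM in MATIP. Pfkfb3, whose product favours the kinase reaction, fell in both (log2 -0.26 ± 0.06 and -0.37 ± 0.06), but with the length and GC trend removed its MAflox value was -0.11 and not called (adjusted p = 0.0891, edgeR).

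At the fork after pyruvate, 14 genes were tested. In MAflox cells 5 rose and 4 fell, in MATIP cells 6 rose and 8 fell, and the difference was higher for 4 and lower for 6. The called shares were 64.3%, 100% and 71.4%, against 65.2%, 76.1% and 61.9% of all tested genes. Pdk1, the HIF target kinase that switches off pyruvate dehydrogenase, had 190 and 213 CPM in MAflox EtOH and 222 and 232 in MAflox 4-OHT, a difference that did not pass (log2 0.17 ± 0.08). In MATIP cells it fell from 135 and 169 to 59.8 and 58.0 CPM (log2 -1.37 ± 0.08). Pcx, pyruvate carboxylase, which feeds pyruvate to oxaloacetate, was at 5.41 and 6.08 CPM in MAflox EtOH and at 6.47 in both MAflox 4-OHT libraries. In MATIP it went from 6.68 and 7.99 to 82.5 and 82.0 CPM (log2 3.48 ± 0.10), with both treated libraries far above every other library.

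In the pentose phosphate pathway, which branches off glucose 6-phosphate, 9 of 10 genes were tested. Of these 6 rose and 1 fell in MAflox, 3 rose and 4 fell in MATIP, and the difference was higher for 1 (Pgd, 0.36 ± 0.08) and lower for 5. The called shares were 77.8%, 77.8% and 66.7%, against 65.2%, 76.1% and 61.9% of all tested genes. G6pdx, which opens the pathway and makes NADPH, rose in both lines (log2 0.44 ± 0.06 and 0.50 ± 0.06). Rpia, ribose-5-phosphate isomerase, rose by 0.49 ± 0.06 in MAflox and fell by 0.65 ± 0.06 in MATIP cells. In gluconeogenesis and glycogen metabolism, 18 of 21 genes were tested, with 10 up and 5 down in MAflox and 6 up and 9 down in MATIP. There the difference was higher for 3 and lower for 10, and the called shares were 83.3%, 83.3% and 72.2%. Gys1, glycogen synthase, rose by 0.45 ± 0.10 in MAflox and fell by 0.92 ± 0.10 in MATIP cells, while Pygl, glycogen phosphorylase, rose in both lines, by 2.04 ± 0.09 in MAflox, with a difference of responses that did not pass (-0.04 ± 0.13).

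The HIF pathway and hypoxia targets formed a list of 24 genes, all tested. In MAflox cells 16 rose and 2 fell, and in MATIP cells 8 rose and 13 fell, with medians of 0.78 and -0.33. The responses differed for 18 of 24, with 2 higher in MATIP (Epas1 and Hif1an) and 16 lower, and a median of -0.82. The members and this list thus had medians of the same sign in each response, set beside 0.02 and 0.00 over all genes. The pentose phosphate (0.49 and -0.08), gluconeogenesis and glycogen (0.34 and -0.26) and pyruvate entry (0.17 and -0.22) lists shared these signs. So did the fructose 2,6-bisphosphate list (0.12 and -0.14). Medians were above 0 in both lines for the other glycolysis genes (1.09 and 0.23), transporters (0.54 and 0.27) and regulators (0.06 and 0.13). Hif1a itself, the oxygen-regulated subunit, had 221 and 227 CPM in MAflox EtOH and 208 and 218 in MAflox 4-OHT, which did not pass. In MATIP it went from 278 and 306 to 263 and 253 CPM (log2 -0.18 ± 0.06), and the difference of responses did not pass (-0.10 ± 0.08).

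Egln3, the prolyl hydroxylase induced by HIF, went from 353 and 398 CPM to 596 and 598 in MAflox cells and from 170 and 235 to 79.2 and 78.5 in MATIP cells. The MATIP 4-OHT libraries were the lowest and the MAflox 4-OHT libraries the highest, as for Ldha. The same order of the 4 groups was seen in Bnip3, a mitophagy receptor, with 192 and 258, 647 and 684, 89.8 and 189, and 74.1 and 79.0 CPM. Their differences of responses were -2.03 ± 0.14 and -2.43 ± 0.28. Ankrd37 (-2.77 ± 0.25) and Ddit4, an inhibitor of mTORC1 signalling (-2.08 ± 0.24), rose in MAflox and fell in MATIP cells as well. With DESeq2 the MATIP falls of Ddit4 (log2 -0.70, adjusted p = 0.0552) and Bnip3 (log2 -0.79, adjusted p = 0.0654) were not called. Other targets rose in both lines, such as Bhlhe40 (1.92 ± 0.14 and 1.90 ± 0.14) and Ndrg1 (2.13 ± 0.19 and 1.67 ± 0.19), and neither differed between them.

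Among 9 regulators of glycolysis gene transcription, 3 rose and 3 fell in MAflox, 4 rose and 3 fell in MATIP, and the response differed upward for 2 and downward for 3. The called shares of 66.7%, 77.8% and 55.6% stand near those of all tested genes (65.2%, 76.1% and 61.9%). Myc, whose product binds CACGTG with MAX, had 339 and 335 CPM in MAflox EtOH and 227 and 197 in MAflox 4-OHT, and fell (log2 -0.67 ± 0.06). In MATIP it rose, from 348 and 371 to 443 and 448 CPM (log2 0.31 ± 0.06). These signs were opposite to those of Ldha, Pgk1 and Slc2a1, of which the MATIP calls of Pgk1 and Slc2a1 were unstable. Of the other members, Hk2 fell in both lines and Pkm rose in both. Hk3, Pfkp, Gapdh and Eno1 were not called in MAflox, nor Aldoa and Eno1 in MATIP. A part of MYC in the responses of the members was not tested. Max fell by 0.25 ± 0.06 and by 1.24 ± 0.06. Txnip, which lowers glucose uptake, rose in both lines (2.31 ± 0.09 and 1.38 ± 0.09).

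**Figure D4:**
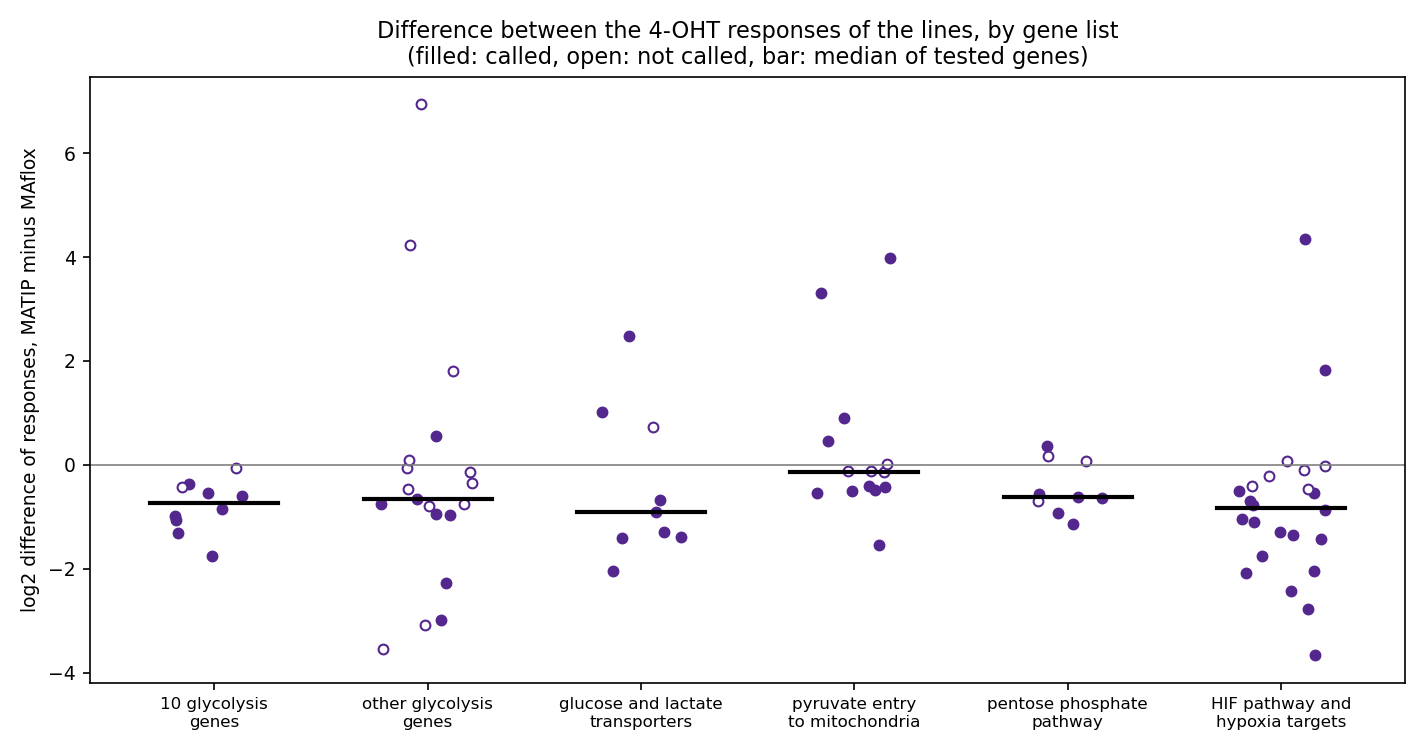
Log2 difference between the 4-OHT responses (MATIP minus MAflox) of every tested gene of 6 lists, with filled points for genes called at an adjusted p of 0.05, open points for others and a bar at the median. The median is -0.73 for the 10 glycolysis genes, -0.66 for other glycolysis genes, -0.91 for transporters and -0.13 for pyruvate entry. It is -0.61 for the pentose phosphate pathway and -0.82 for the HIF list. Each list but the first holds called genes on both sides of 0.

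The 10 members were averaged as standardised log2 CPM over the 8 libraries, and the other tested genes were ranked by their Pearson correlation with that average. Since the libraries fall into 4 groups, this ranking describes the group pattern and carries no test. The 10 closest genes were BC028528, Smtnl2, Tfr2, Egln3, Plekha2, Gm10560, Pdk3, Nkg7, Yif1a and Rab27a, with coefficients from 0.986 to 0.993. Of these, Egln3 and Pdk3, a pyruvate dehydrogenase kinase, belong to lists described above. Taken 1 at a time against the average of the other 9, Ldha followed it most closely (0.99), and Hk2 and Pkm least (0.31 each).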

How the data were processed

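Counts per gene were analysed for 8 libraries, 2 in each of 4 groups taken from the sample titles. The deposited table holds raw counts of reads per gene symbol. The submitters' processing notes name the build mm10 and DESeq2, featureCounts 1.6.4, HISAT2 2.1.0 and Trimmomatic 0.38.0. For strandedness and multiply mapped reads the setting is not given in the sources used here. Per the file headers, a second table holds the authors' log2 fold changes and the authors' adjusted p-values.

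Genes were filtered with filterByExpr (minimum count 10, minimum total 15), scaled with TMM factors and tested by the quasi-likelihood test of edgeR 4.0.16 (R 4.3.3, limma 3.58.1) fitted to the 8 libraries jointly, a coefficient for each group and no further term. The spread was estimated once for the 4 groups, with 4 degrees of freedom left among libraries, 14.27 from the prior and a common biological variation of 5.98%. Chi-square statistics between replicates were 7.33 to 13.6 times their degrees of freedom, above sampling noise. The 5 contrasts were fitted and p-values were adjusted by Benjamini-Hochberg over 13722 genes within each, with calls at 0.05. The standard error is the log2 change over the square root of F. CPM values are scaled with TMM factors. TPM and isozyme shares use exon-union lengths from GENCODE M21, where 23368 symbols were found.

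Alternatives were RLE factors, DESeq2 1.42.0, no filter, only the libraries of a contrast, replicate blocks, offsets that remove a trend on length and GC content (known for 96.3% of tested genes), and each library left out. The script was tested on simulated data. The members, lists and tests were chosen with earlier results of these data known, so no list test was made. Named genes were the members, Kat5, every list gene whose responses differed or, failing that, the 2 called with the smallest p in each response (73 list genes, of which the text prints a part), and the 10 closest in pattern. A few genes beyond this rule (G6pdx, Hif1a, Bhlhe40, Ndrg1 and low isozymes) were chosen after their values were seen.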

Additional observations from a re-analysis of the deposited data

Results flagged for a closer look

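The responses of the lines to 4-OHT differed by a test of the difference itself (edgeR quasi-likelihood, MATIP response minus MAflox response, log2) for the following genes, each with a Benjamini-Hochberg adjusted p under 0.05 over all tested genes, a test that called 61.9% of them. Among the members the difference was -0.99 for Slc2a1, -0.37 for Hk2, -0.60 for Hk3, -0.86 for Pfkp, -1.06 for Aldoa, -0.54 for Gapdh, -1.76 for Pgk1 and -1.31 for Ldha. Among other genes of the pathway it was -0.66 for Hk1, 0.55 for Adpgk, -0.97 for Gpi1, -2.99 for Aldoc, -2.28 for Tpi1, -0.75 for Pgam1, -0.94 for Eno1b, 0.48 for Pfkfb2, -1.05 for Pfkfb4 and -0.91 for Tigar. Eno1b shares most of its sequence with Eno1, so its counts cannot be firmly told from those of Eno1. Transporters and their chaperone gave -0.68 (Slc2a3), 2.47 (Slc2a6), -1.38 (Slc16a1), -2.03 (Slc16a3) and -1.40 (Bsg). The Slc2a3 difference was -0.27 (adjusted p = 0.0802, edgeR) without MATIP EtOH replicate 2 and was not called by DESeq2 (-0.60, adjusted p = 0.193). At the branches from the pathway the values were -1.54 for Pdk1, 3.31 for Pcx, 0.36 for Pgd, -1.14 for Rpia and -1.37 for Gys1. Genes of the HIF list gave -2.03 (Egln3), -2.43 (Bnip3), -2.77 (Ankrd37), -2.08 (Ddit4), 4.35 (Epas1) and 1.83 (Hif1an), and the regulators gave 0.98 (Myc), -0.99 (Max) and -0.93 (Txnip).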

How the results depend on the processing

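Over 730 alternative values for the members, 685 kept their direction and their side of the threshold, 24 lost the call, 7 gained one and 14 changed sign, none of these last in a called value. Of 2955 for the other named genes, 2917 kept both, 32 lost the call and 6 changed sign. With the length and GC trend removed, 0 members were called lower in MAflox. In the EtOH comparison of the lines, DESeq2 called 3 members lower. Leaving out 1 library there gave 1 (without MATIP EtOH replicate 1) to 6 lower, with 2 without MAflox EtOH replicate 2, and 0 to 1 higher. With the trend removed, MAflox log2 values were -0.0026 for Gapdh and -0.15 for Eno1, and, for genes called higher before, -0.036 for Tpi1, -0.14 for Pgam1 (then called lower), -0.17 for Eno1b, -0.080 for Pdk3 and -0.043 for Pgm1. The Mpc1 difference of responses became 0.13, and between the lines in EtOH Hk2 was -0.066 and Pfkp -0.12. Leaving out 1 library gave ranges across 0 between the lines in EtOH for Hk2 (-0.0039 to 0.19), Pfkp (-0.093 to 0.24) and Aldoa (-0.26 to 0.046), for Aldoa in MATIP (-0.26 to 0.045), for Eno1 in MAflox (-0.049 to 0.25) and for the Pkm difference (-0.19 to 0.059), which was 0.0092 with RLE factors and 0.0072 with DESeq2. The cause was not tested. Of 40 TPM means, 34 moved by more than 1 SD with longest transcripts.

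Groups share replicate numbers, but over all tested genes the deviations of same-numbered libraries had correlations of only -0.04 to 0.02, and the labels tie no number to a culture or day. The members are an exception in part, since 9 of 10 were higher in replicate 2 in both EtOH groups. With the replicate block within a line, 8647 (MAflox), 10153 (MATIP) and 8155 (difference) genes were called, against 8947, 10441 and 8491 without it, and no call of a member was lost or gained. That block could not be fitted for the comparisons between lines. Depth limits chiefly Eno1, at 1.66 to 3.25 CPM.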
